A study of Mus musculus with 12 samples.

Results

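The genes described here encode small secreted or cytosolic protease inhibitors of 3 families: the Wfdc genes with Slpi, the Spink genes and the cystatins. They were chosen by symbol alone, as Wfdc, Spink or Cst followed by a number, with Slpi, Csta and Cstb, and Spink3 was left out. This gave 37 genes, 16 Wfdc genes including Slpi, 10 Spink genes and 11 cystatins, of 31618 genes listed for the female and 31669 for the male libraries. Eppin carries its older symbol Spinlw1 in the files and so was not chosen; its values are given where the Wfdc locus is described. In the female set 6 of the 37 were constant, 10 stayed below the minimum level of 20 normalised reads and 21 were measured. In the male set 1 was constant, 9 stayed below the minimum and 27 were measured.

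Wfdc proteins carry the whey acidic protein domain, a small fold held by disulphide bonds. Most mouse Wfdc genes lie in a cluster on chromosome 2 that also holds the genes of seminal vesicle secretory proteins, and they are best known from male tract epithelia and mucosal surfaces, where members such as Slpi inhibit neutrophil serine proteases and act on bacteria. Spink proteins carry Kazal domains that block trypsin-like and kallikrein-like serine proteases. Many cystatins block papain-like cysteine proteases such as the cathepsins. A subgroup that includes Cst8 is known from the testis and epididymis, and what its members inhibit was not tested.

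Libraries were made from the uterus and the vas deferens of adult mice of 5 genotypes, and from the oviduct and the caudal epididymis of wild type (WT), each from RNA pooled from 3 animals aged 3 to 7 months on a CD1/129 background, the females in diestrus. Hoxa-null animals carry 2 mutant copies of Hoxa9,10,11 and Hoxd-null animals 2 mutant copies of Hoxd9,10,11. Compound animals have 1 mutant copy of the other cluster as well: Hoxa9,10,11-/-d9,10,11+/- is called the Hoxa-null compound and Hoxa9,10,11+/-d9,10,11-/- the Hoxd-null compound. Each group is 1 library, so no difference has a replicate check and no p-value is given; a call of 2-fold, or 4-fold between segments of the WT tract, describes the libraries compared.

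Values are on 2 scales. A level is in normalised reads, the reads of a gene times 1 factor per library, and levels under 1 were set to 1, the floor. Levels are not per length and are compared only within a gene. For 5 measured members of the female and 14 of the male set no level could be read, and the deposited log2 value is given, in which the median of the 6 libraries of a sex is 0. Intervals in brackets are exact 95% intervals of the ratio of the 2 read numbers and cover counting error only, since reads are not independent molecules and the spread between animals is not known.

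Of the targeted genes, Hoxa11 had differences from WT of -2.74 and -3.11 log2 units in the single and compound Hoxa-null uterus and of -2.29 and -3.20 in the matching vasa, while Hoxa9 and Hoxa10 lay between -1.06 and 0.62 in these 4 libraries. Hoxd11 stood at -0.59 and -1.58 in the single and compound Hoxd-null uterus, but also at -0.74 and -1.35 in the Hoxa-null pair, and at -2.47 and -1.17 in the Hoxd-null vasa. Hoxd9 and Hoxd10 lay between -0.25 and 0.58 in the Hoxd-null uteri and between -1.28 and 0.49 in the Hoxd-null vasa. Whether the alleles abolish the transcripts is not stated, so these values do not check the labels. Relative depth spanned 1.34-fold among the female and 1.92-fold among the male libraries. One lane held the uteri of WT and Hoxa-null animals with the vas deferens of WT. Another held the 3 remaining uteri and 3 vasa, namely Hoxd-null and both Hoxa-null kinds. The oviduct, the caudal epididymis and the vas deferens of the Hoxd-null compound were run separately. The WT vas deferens held 120.4 normalised reads of Prss29 and 30.4 of Prss28, both markers of uterine glands, while the other 5 male libraries stood between 1 and 2.76 for these genes.

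In the vas deferens the inhibitors separated the 2 Hoxa-null libraries from the 3 others. Both Hoxa-null vasa lay at least 2-fold above WT, Hoxd-null and Hoxd-null compound for 11 of 27 measured members, against 4.12% of all measured genes, and for 2 they were that far below, against 2.26%. The 11 were Wfdc8, Wfdc9, Wfdc10, Wfdc11, Wfdc12, Wfdc15a, Wfdc15b, Wfdc16, Spink6, Spink8 and Spink10, and the 2 lower genes were Slpi and Spink4. The Hoxa-null and Hoxa-null compound libraries differed from each other by at most 0.55 log2 units for these 11. Against WT alone, the Hoxa-null vas had 18 members higher and 2 lower, with backgrounds of 10.8% and 8.27%, and the Hoxa-null compound vas 16 higher and 3 lower, with backgrounds of 13.9% and 8.22%. The median log2 difference from WT was 1.80 and 1.91 for the measured members and 0.01 in both libraries for all measured genes. These comparisons share the WT library. Within the lane that held both Hoxa-null vasa and the Hoxd-null vas, both Hoxa-null libraries had 16 members at least 2-fold higher and 3 lower, with backgrounds of 9.42% and 4.90%; these are the same libraries and no independent check.

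**Figure D1:**
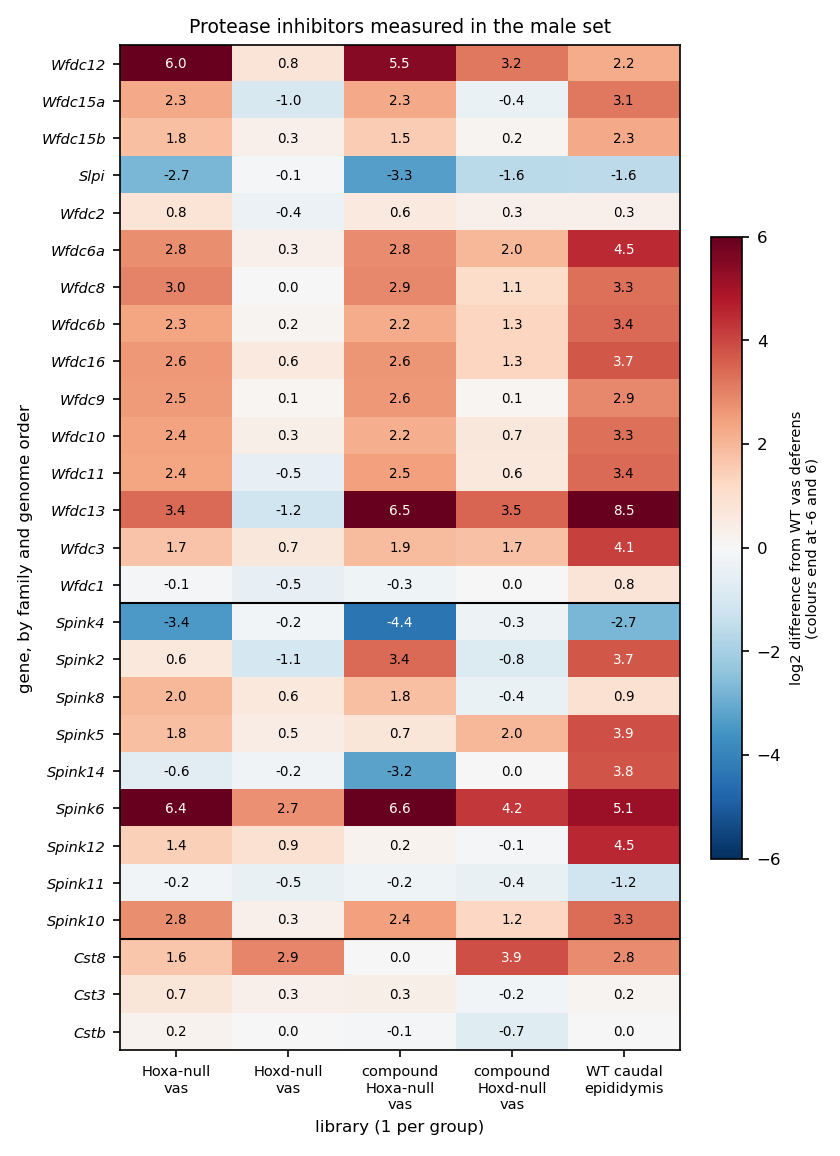
Log2 difference from the WT vas deferens of the 27 measured members (rows, grouped as Wfdc with Slpi, Spink and cystatins, in genome order within a family) in 5 libraries (columns, 1 library each); red is higher and blue lower than WT, and the number in each cell is the difference. The Hoxa-null, Hoxa-null compound and caudal epididymis columns are red over most Wfdc rows, while Slpi and Spink4 are blue there.

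Most of the higher genes are neighbours. On chromosome 2 (mm9), 15 members lie between Wfdc5 (start 164003097) and Wfdc3 (start 164556726), and 14 of them were measured in the male set. Of these 14, 12 were at least 2-fold above WT in the Hoxa-null vas and the same number in the Hoxa-null compound vas, with median differences of 2.40 and 2.37. Slpi, in the middle of the cluster, was lower in both, and Wfdc2 stayed within 2-fold at 0.81 and 0.61. Of 18 other genes listed between the members, 14 were measured, with 9 at least 2-fold above WT and 2 below it in the Hoxa-null vas. They include Semg1, Svs3a, Svs3b, Svs4, Svs5 and Svs6, genes of seminal vesicle secretion, with Semg1 at 3.63 and 3.24 and Svs5 at 3.18 and 2.63, and the inhibitor genes Spint3 and Spinlw1. Among 10 genes that flank the cluster, 1 was higher in the Hoxa-null vas, the potassium channel gene Kcns1 at 2.36, and 0 were lower; the median was 0.04.

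**Figure D2:**
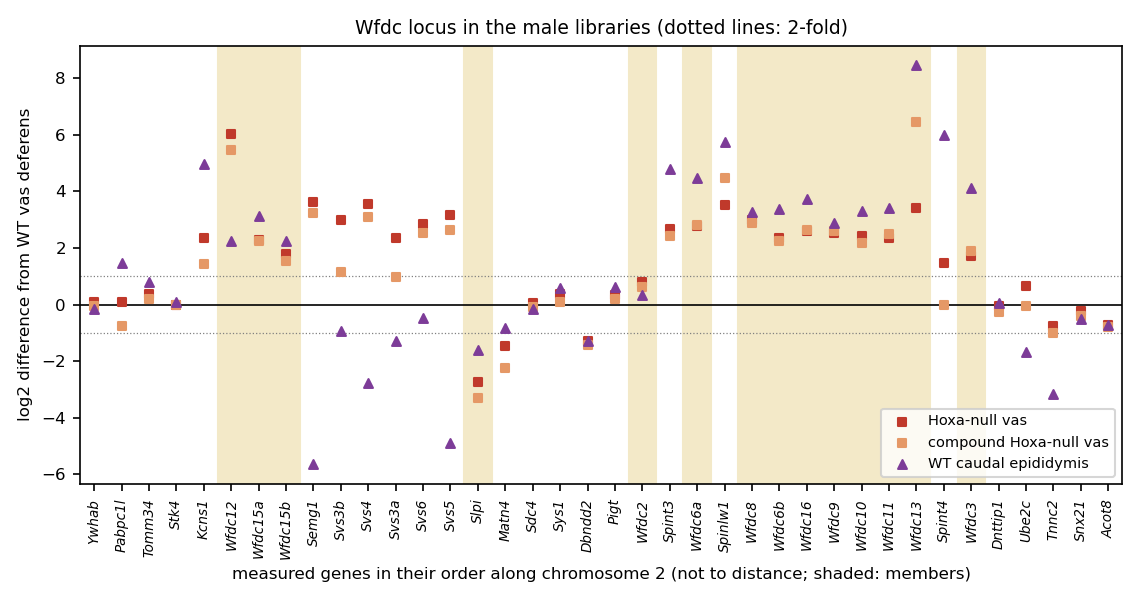
Log2 difference from the WT vas deferens (vertical axis) of the measured genes of the Wfdc locus and 5 flanking genes on each side, in their order along chromosome 2 (horizontal axis, not to distance; members shaded), in the Hoxa-null vas, the Hoxa-null compound vas and the WT caudal epididymis. Shaded genes lie above the 2-fold line in all 3 libraries except Slpi and Wfdc2, and the seminal vesicle genes from Semg1 to Svs5 lie above 0 in the Hoxa-null pair and below 0 in the epididymis.

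The sequences before the transcription starts of 5 of these genes are shown in 4 stretches. In the vas deferens these genes moved together or, for Slpi, the opposite way. Other members that moved with them are not shown. RefSeq windows of 250 bases before to 50 after a start (GRCm38.p6), matched by symbol, were searched for 21 of the 37 members, 26 windows in all. Wfdc8 and Wfdc6b, which had alike values in the male libraries, are transcribed away from each other from starts 74 bases apart (another annotated Wfdc8 start lies 314 bases from that of Wfdc6b), so that they share the 73 bases at chr2:164613627-164613699 on the plus strand. Capitals mark AGAACA, the half-site of the androgen receptor element, read on either strand. The other stretches are the 250 bases before the starts of Wfdc15b (chr2:164221664-164221913), Wfdc11 (chr2:164674088-164674337) and Slpi (chr2:164356508-164356757), all on the minus strand.
between Wfdc8 and Wfdc6b: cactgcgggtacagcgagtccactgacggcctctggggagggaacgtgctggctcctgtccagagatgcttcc
Wfdc15b: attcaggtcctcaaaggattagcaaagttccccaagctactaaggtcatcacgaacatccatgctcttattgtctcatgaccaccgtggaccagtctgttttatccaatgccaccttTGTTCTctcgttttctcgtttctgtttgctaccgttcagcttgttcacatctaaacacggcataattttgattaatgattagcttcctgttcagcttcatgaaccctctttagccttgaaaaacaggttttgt
Wfdc11: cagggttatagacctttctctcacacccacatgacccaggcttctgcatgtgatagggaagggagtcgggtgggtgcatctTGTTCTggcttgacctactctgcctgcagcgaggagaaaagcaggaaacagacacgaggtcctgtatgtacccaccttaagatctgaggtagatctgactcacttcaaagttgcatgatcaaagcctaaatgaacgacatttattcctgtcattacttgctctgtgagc
Slpi: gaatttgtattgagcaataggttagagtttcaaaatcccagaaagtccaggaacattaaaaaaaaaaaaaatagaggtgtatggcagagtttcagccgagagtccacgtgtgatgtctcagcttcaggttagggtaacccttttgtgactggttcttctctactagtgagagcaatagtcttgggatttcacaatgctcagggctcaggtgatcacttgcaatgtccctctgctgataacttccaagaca

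AGAACA was present, on either strand, in windows of 4 of the 21 members, and 19.0% of all 32851 windows hold it. Of the 8 among these 21 that were higher in the Hoxa-null pair, 2 had it, Wfdc15b and Wfdc11, and both are among the sequences shown. Wfdc9, Wfdc10, Wfdc12, Wfdc15a and Wfdc16 were also higher in the Hoxa-null pair, did not have it and are not shown. TTTATGG, a site bound by Hox proteins of the Abdominal-B type, was in 2.75% of all windows. TGATTTAT, a site of Hox proteins with Pbx, was in 0.98%. Neither occurred in a window of the 21 members searched. Spink5, Spink6, Spink7, Spink10, Spink11, Spink12 and Spink14 were left out of the search, and no window was matched to Spink8. Spink6, Spink8 and Spink10, also higher in the Hoxa-null pair, were thus not searched for any site. TATAAA was in windows of 2 of the 21 members, 1 of them Wfdc8, against 13.6% of all windows. A match describes these letters and no match says only that they are not in the window.

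Wfdc12, which encodes a protein with a lone whey acidic protein domain and antibacterial activity (chromosome 2, start 164014967, mm9), had the widest separation of the Wfdc genes with a level. It stood at 6.34 normalised reads in the WT vas, 10.8 in the Hoxd-null, 56.8 in the Hoxd-null compound, 284 in the Hoxa-null compound and 417 in the Hoxa-null vas, and at 29.7 in the epididymis. The 2 Hoxa-null libraries were highest, the Hoxd-null compound vas came next, and WT was lowest. The Hoxa-null vas was 65.5-fold above WT [34.4 to 144.9] and the Hoxa-null compound vas 44.7-fold [23.3 to 98.8]. Wfdc12 lay higher in both Hoxa-null vasa than in the epididymis.

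Wfdc15a, its neighbour, had 13.4 normalised reads in the WT, 6.85 in the Hoxd-null, 10.3 in the Hoxd-null compound, 63.9 in the Hoxa-null compound and 64.9 in the Hoxa-null vas, and 118 in the epididymis. The 2 Hoxa-null libraries were alike and 4.83-fold [2.87 to 8.47] and 4.77-fold [2.84 to 8.36] above WT. Wfdc15b had log2 values of -0.91 in WT, -0.61 in the Hoxd-null, -0.75 in the Hoxd-null compound, 0.61 in the Hoxa-null compound and 0.89 in the Hoxa-null vas, and 1.35 in the epididymis. Its differences from WT were 1.80 and 1.52 in the Hoxa-null pair. Wfdc15a and Wfdc15b, like Wfdc6a and Wfdc6b, are close paralogs, and how reads shared by paralogs were counted is not given in the sources used here.

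Wfdc11 had 48.0 normalised reads in the WT, 33.9 in the Hoxd-null, 74.6 in the Hoxd-null compound, 269 in the Hoxa-null compound and 249.5 in the Hoxa-null vas, and 509 in the epididymis. It was 5.17-fold [3.98 to 6.90] and 5.59-fold [4.30 to 7.41] above WT in the Hoxa-null pair, and the epididymis lay above both. Wfdc8, Wfdc9, Wfdc10 and Wfdc16 had no level; for each, both Hoxa-null vasa lay above the 3 other vasa and the epididymis above both. Their log2 differences from WT were 2.98, 2.54, 2.42 and 2.61 in the Hoxa-null vas. In the Hoxa-null compound vas they were 2.90, 2.59, 2.19 and 2.64, and in the epididymis 3.28, 2.90, 3.31 and 3.73. In the Hoxd-null vas none of the 4 was 2-fold from WT, with differences of -0.02, 0.10, 0.34 and 0.59, and in the Hoxd-null compound vas Wfdc8 and Wfdc16 were higher by 1.10 and 1.27 and Wfdc9 and Wfdc10 differed by 0.11 and 0.66.

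Wfdc6a, Wfdc6b, Wfdc13 and Wfdc3 were at least 2-fold above WT in both Hoxa-null vasa but did not separate the pair, because the Hoxd-null compound vas was raised as well. Wfdc6b came close, with differences of 2.35 and 2.24 in the Hoxa-null pair, 0.17 in the Hoxd-null and 1.28 in the Hoxd-null compound vas, 3.38 in the epididymis and a gap of 0.97 log2 units. Wfdc6a was at 2.79, 2.82, 0.30, 2.02 and 4.49 in the same libraries. Wfdc13 was the most variable member of the male set, with log2 values of -3.46 in WT, -4.65 in the Hoxd-null, 0.04 in the Hoxd-null compound, -0.04 in the Hoxa-null, 3.00 in the Hoxa-null compound and 5.001 in the epididymis. The Hoxa-null compound vas was 3.04 log2 units above the Hoxa-null vas, while the members on either side of it, Wfdc11 and Wfdc3, differed by 0.11 and 0.21. Wfdc3 was low, with 4.23 normalised reads in WT, 6.85 in the Hoxd-null vas and 13.8, 15.9 and 14.2 in the Hoxa-null, Hoxa-null compound and Hoxd-null compound vas, and 72.9 in the epididymis. Its intervals against WT reach down to 1.20, 1.43 and 1.14 in the 3 mutants.

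Slpi, an inhibitor of neutrophil elastase and cathepsin G, went the other way. It had 554 normalised reads in the WT and 524 in the Hoxd-null vas, 181 in the Hoxd-null compound, 83.4 in the Hoxa-null and 55.7 in the Hoxa-null compound vas, and 184 in the epididymis. WT and Hoxd-null were alike and high, and the Hoxa-null pair was low, with ratios to WT of 0.12 to 0.19 and 0.08 to 0.13 by their intervals. Log2 differences from WT were -2.74 and -3.32, and -1.62 in the Hoxd-null compound vas. Wfdc1, which lies on chromosome 8 away from the cluster and is known as a growth inhibitor of prostate stroma, moved little: 396 to 556 normalised reads over the 5 vasa and 961 in the epididymis. Wfdc2, known as an epididymal protein, had 72.4 to 164 normalised reads over the 6 libraries.

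Among the Spink genes, Spink6, which in human skin inhibits kallikreins, had the largest differences. It stood at 7.04 normalised reads in the WT, 46.9 in the Hoxd-null, 133.8 in the Hoxd-null compound, 592.5 in the Hoxa-null and 690 in the Hoxa-null compound vas, and 249 in the epididymis. Every mutant lay above WT, by 83.7-fold [45.4 to 176] and 97.7-fold [53.0 to 205] in the Hoxa-null pair and 6.65-fold [3.33 to 14.8] in the Hoxd-null vas. Spink10 had log2 values of -1.84 in WT, -1.51 in the Hoxd-null, -0.61 in the Hoxd-null compound, 0.61 in the Hoxa-null compound and 0.93 in the Hoxa-null vas, and 1.501 in the epididymis. Spink8 was higher than WT by 2.01 and 1.82 in the Hoxa-null pair and by 0.90 in the epididymis, so that, like Spink6 and Wfdc12, it lay higher in the Hoxa-null vasa than in the epididymis. For the other 8 of the 11 separating genes the epididymis was the highest library. The matching share of all measured genes was not counted. Of all 27 measured members, 19 were at least 4-fold higher in the epididymis than in the WT vas.

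Spink4, known from goblet cells of the gut, had 53.7, 48.2 and 44.2 normalised reads in the WT, Hoxd-null and Hoxd-null compound vas, and 4.97, 2.58 and 8.10 in the Hoxa-null vas, the Hoxa-null compound vas and the epididymis. The Hoxa-null pair and the epididymis were thus low and did not overlap with the other 3. The Hoxa-null vas was 10.9-fold below WT, with a ratio of 0.03 to 0.21 by its interval, and the Hoxa-null compound vas 20.8-fold below.

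Spink2 and Spink14 differed between the 2 Hoxa-null libraries. Spink2, an inhibitor of acrosin in sperm (chromosome 5), had 18.3, 28.6, 8.80 and 10.3 normalised reads in the WT, Hoxa-null, Hoxd-null and Hoxd-null compound vas, but 194 in the Hoxa-null compound vas and 240 in the epididymis. The Hoxa-null compound vas was 6.80-fold [4.64 to 10.2] above the Hoxa-null vas. Acr, which encodes acrosin, had 1.41, 11.1, 1.96 and 1.29 normalised reads in those 4 vasa, 90.8 in the Hoxa-null compound vas and 24.9 in the epididymis. Of 8 spermatid markers, the Hoxa-null compound vas had 3 higher and 4 lower than WT, and 8 of 8 were at least 4-fold higher in the epididymis; the part of sperm RNA in the Spink2 values was not tested. Spink14 had 413, 272, 358 and 420 normalised reads in the WT, Hoxa-null, Hoxd-null and Hoxd-null compound vas, 44.0 in the Hoxa-null compound vas and 5578 in the epididymis. It was the opposite of Spink2 in the Hoxa-null compound vas, 9.41-fold below WT.

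Spink5, whose human counterpart LEKTI inhibits epidermal kallikreins, had log2 values of -1.27 in WT, -0.81 in the Hoxd-null, 0.70 in the Hoxd-null compound, 0.53 in the Hoxa-null and -0.54 in the Hoxa-null compound vas, and 2.59 in the epididymis. The Hoxa-null libraries differed: the single mutant was 1.80 above WT and the compound 0.73, under 2-fold. Spink12, which was abundant in the WT uterus run in the same lane, had 9.15 normalised reads in the WT, 24.5 in the Hoxa-null, 17.3 in the Hoxd-null, 10.5 in the Hoxa-null compound, 8.35 in the Hoxd-null compound and 213.5 in the epididymis. Spink11 had a range of 0.45 log2 units over the 5 vasa and was lower in the epididymis by 1.19.

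Of the 11 cystatins, 3 were measured in the male set. Cst3, the widely expressed cystatin C, and Cstb, the cytosolic stefin B, had ranges of 0.89 and 0.92 log2 units over the 6 male libraries. Cst8, also called CRES, was the only member to separate the Hoxd-null pair. This was 1 of 27 higher against 0.133% of all measured genes, and 0 lower against 0.627%. Cst8 reached the minimum level only in the Hoxd-null compound vas, so it was counted only through the pair in which it was higher. Without the Hoxd-null compound the count was 3, and without the WT library it was 15. Without WT, the Hoxd-null pair was set against both Hoxa-null libraries alone. The matching shares of all measured genes for these 2 counts are not given. Cst8 had 2.11 normalised reads in the WT, 2.12 in the Hoxa-null compound, 6.63 in the Hoxa-null, 16.0 in the Hoxd-null and 30.7 in the Hoxd-null compound vas, and 14.9 in the epididymis. The levels are low, and the intervals against WT run from 2.12 to 39.7 and from 4.46 to 76.2. Cst7, Cst9, Cst11, Cst12 and Cst13 stayed below the minimum, with at most 14.2 normalised reads.

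The Hoxd-null vas itself differed little from WT in these genes. At 2-fold, 2 members were higher, Cst8 and Spink6, and 2 lower, Spink2 and Wfdc13, against 3.24% and 4.76% of all measured genes. In the Hoxd-null compound vas 11 were higher and 1 lower, against 7.53% and 5.19%. The 11 were Wfdc3, Wfdc6a, Wfdc6b, Wfdc8, Wfdc12, Wfdc13, Wfdc16, Spink5, Spink6, Spink10 and Cst8, and the lower gene was Slpi. Set against its single mutant, the Hoxd-null compound vas had 9 members at least 2-fold higher and 3 lower, with backgrounds of 7.74% and 3.80%, while the Hoxa-null compound vas had 2 higher and 4 lower than the Hoxa-null vas, with backgrounds of 7.42% and 1.77%. Since the Hoxd-null compound vas was sequenced apart from the other vasa, its run and its genotype cannot be told apart.

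In the WT tract the caudal epididymis, the segment before the vas deferens, held at least 4-fold more than the WT vas for 19 of 27 members, against 9.44% of all measured genes, and at least 4-fold less for 1, Spink4, against 3.91%. Of the 19, Wfdc3 reached the minimum level only in the epididymis. The median difference was 3.28 log2 units for the measured members and 0.02 for all measured genes. Wfdc13 was highest at 8.46 log2 units, followed by Spink6 at 5.15, Spink12 at 4.54, Wfdc6a at 4.49 and Wfdc3 at 4.11. This comparison shares the WT vas library with those of the mutants, and the 2 segments were sequenced in different runs, so segment and run cannot be told apart.

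Markers of other cells moved with the Hoxa-null vasa, and their part in these values was not tested. Of 5 measured seminal vesicle markers, the Hoxa-null vas had 5 at least 2-fold above WT, its compound 4 and the Hoxd-null pair 0. The 2 of them with a level, Svs3a and Svs6, summed to 64.2 normalised reads in WT, 445 in the Hoxa-null, 43.8 in the Hoxd-null, 334 in the Hoxa-null compound and 58.6 in the Hoxd-null compound vas, and to 42.7 in the epididymis. In the epididymis 3 of the 5 were at least 4-fold lower than in the WT vas. Smooth muscle markers had medians of -0.85 and -1.37 in the Hoxa-null pair, and markers of simple epithelium 0.75 and 0.57. Of 7 markers of epididymal and vas epithelium, the Hoxa-null vas had 3 higher and 1 lower and its compound 4 higher and 1 lower. In pooled whole tissue, more cells of a type and more RNA per cell cannot be told apart.

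**Figure D3:**
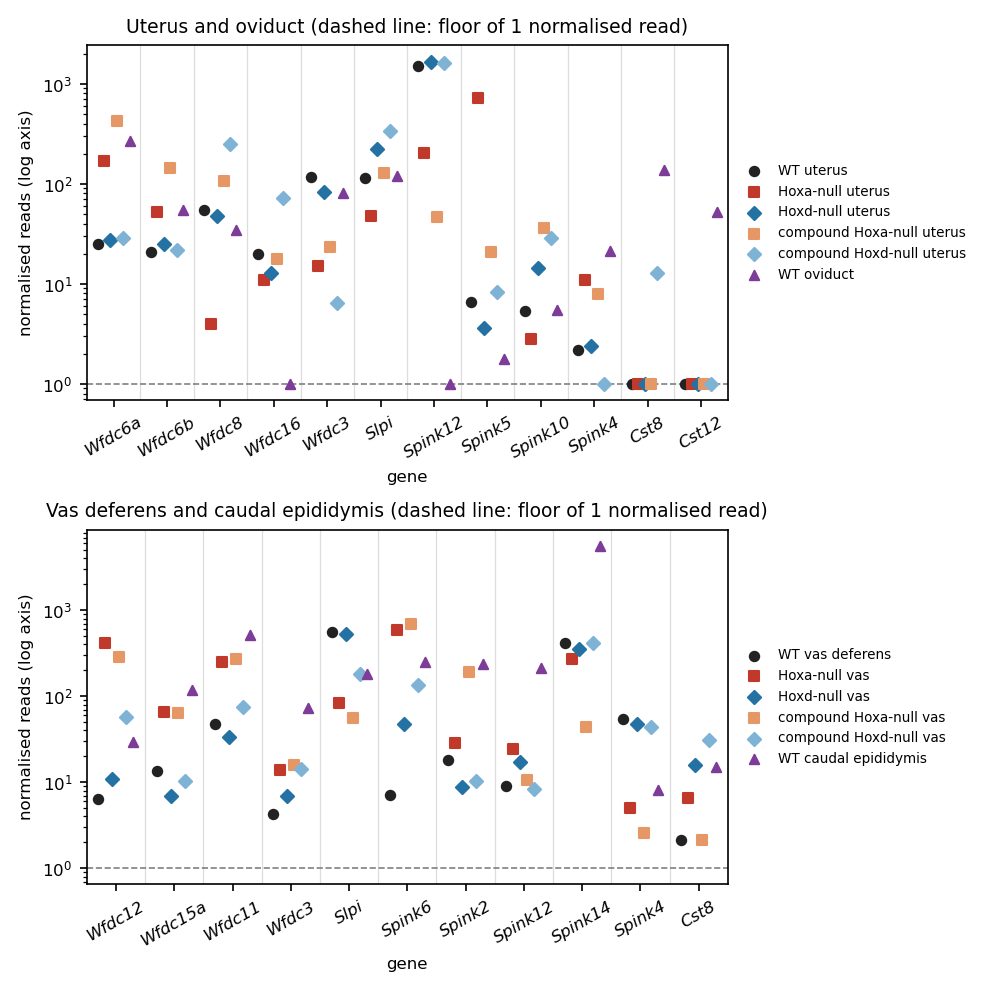
Levels in normalised reads (vertical log axis, dashed line at the floor of 1) of 12 members in the 6 female libraries (top) and 11 members in the 6 male libraries (bottom); each point is 1 library, with squares for Hoxa-null, diamonds for Hoxd-null, circles for WT and triangles for the other WT segment. In the top panel the red and orange squares of Spink12 lie below and those of Wfdc6a and Wfdc6b above the other uteri; in the bottom panel those of Wfdc12, Wfdc11 and Spink6 lie above and those of Slpi and Spink4 below the other vasa.

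In the uterus fewer members separated the genotypes. Of 21 measured members, 4 were 2-fold or more higher in the Hoxa-null pair than in each other uterus, Wfdc6a, Wfdc6b, Spink4 and Spink5, against 0.968% of all measured genes, and 1 was lower, Spink12, against 1.09%. Of the 4, Spink4 reached the minimum level only in the oviduct, which is outside this comparison. Spink5 reached it only in the Hoxa-null pair, in which it was higher. The Hoxd-null pair was separated by 0 members, against 0.932% of all measured genes higher and 0.321% lower. Without the Hoxa-null compound library 9 members separated the Hoxa-null side. The Hoxd-null pair was separated by 5 without WT, when it was set against both Hoxa-null uteri alone, and by 7 without the Hoxd-null library. For these counts with a library left out, the matching shares of all measured genes are not given. Against WT the Hoxa-null uterus had 4 members higher and 8 lower, with backgrounds of 5.83% and 7.16%, and the Hoxa-null compound uterus 6 higher and 3 lower, with backgrounds of 8.28% and 6.74%. The first of these comparisons lies within a lane. In the lane of the 3 other uteri the Hoxa-null compound had 4 members higher and 2 lower than both Hoxd-null uteri, with backgrounds of 5.11% and 4.45%; these are the same libraries and no independent check. The Hoxd-null uterus had 1 higher and 1 lower, with backgrounds of 6.05% and 5.69%, and the Hoxd-null compound uterus 5 higher and 4 lower, with backgrounds of 7.83% and 6.21%. The median differences of the measured members were -0.63, 0.14, -0.01 and 0.18, in that order, and between -0.01 and 0.00 for all measured genes.

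**Figure D4:**
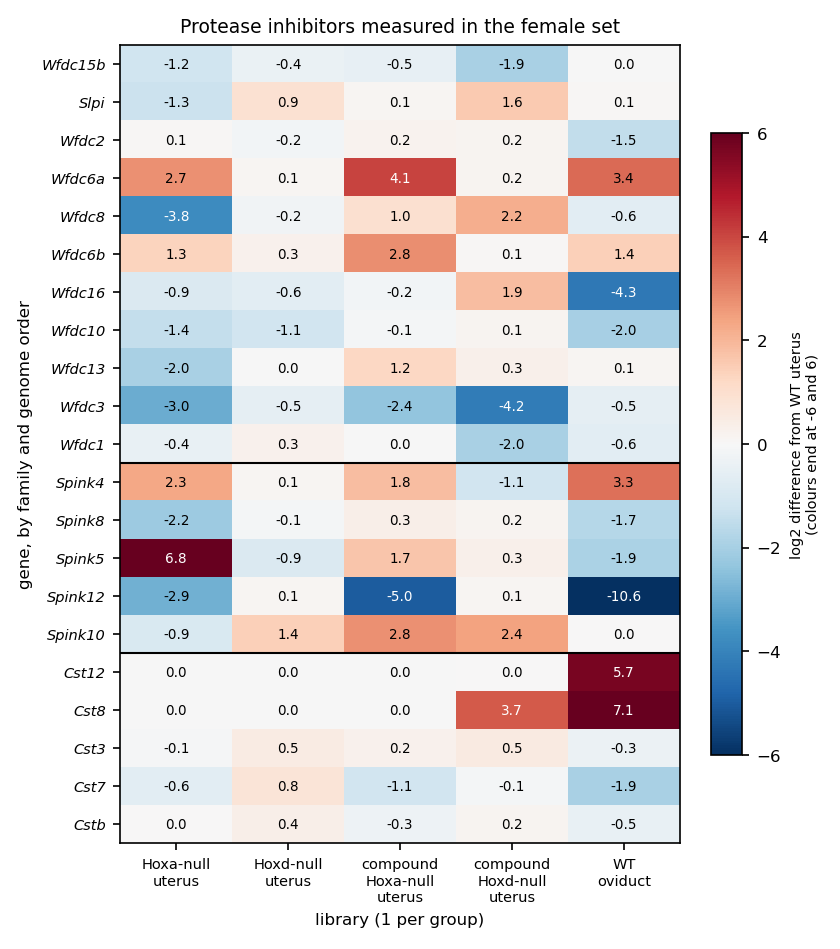
Log2 difference from the WT uterus of the 21 measured members (rows, grouped as Wfdc with Slpi, Spink and cystatins) in 5 libraries (columns, 1 library each); red is higher and blue lower than WT, and the number in each cell is the difference. Wfdc6a and Wfdc6b are red in the Hoxa-null, Hoxa-null compound and oviduct columns, and Spink12 is blue in the same 3.

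Spink12 (chromosome 18) had 1510 normalised reads in the uterus of WT, 1665 in that of the Hoxd-null and 1625 in the Hoxd-null compound, 205 in the Hoxa-null and 47.1 in the Hoxa-null compound uterus, and was at the floor in the oviduct. The 3 uteri with an intact Hoxa9,10,11 copy were within 1.10-fold of each other and the Hoxa-null pair was far below. The Hoxa-null uterus was 7.38-fold and the Hoxa-null compound uterus 32.2-fold below WT, with ratios of 0.12 to 0.16 and 0.02 to 0.04 by their intervals. The Hoxa-null compound uterus was itself 4.36-fold below the Hoxa-null uterus. Uterine gland markers were at least 2-fold below WT for 4 of 5 in each of these uteri, 4 of 5 in the Hoxd-null compound and 2 of 5 in the Hoxd-null uterus. Their part in the Spink12 values was not tested. With 3 counts taken as the upper limit for the oviduct, the oviduct was at least 564-fold lower than the WT uterus.

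Spink5 had 6.58 normalised reads in the WT, 3.59 in the Hoxd-null, 8.23 in the Hoxd-null compound, 21.0 in the Hoxa-null compound and 722 in the Hoxa-null uterus, and 1.78 in the oviduct. The Hoxa-null uterus stood alone, 109-fold above WT [50.2 to 300.1], and the Hoxa-null compound uterus was 3.19-fold above WT [1.25 to 9.68]. All 8 markers of stratified squamous epithelium were at least 2-fold above WT in both of these uteri, and also in the Hoxd-null compound uterus. Their medians were 5.94, 4.19 and 2.23 log2 units, and the 2 with a level, Trp63 and Dsc3, summed to 36.2 normalised reads in WT, 879 in the Hoxa-null, 32.3 in the Hoxd-null, 443 in the Hoxa-null compound and 90.5 in the Hoxd-null compound uterus. Their part in the Spink5 values was not tested. Csta, a cytosolic cystatin of stratified epithelia, had 14.5 normalised reads in the Hoxa-null uterus and was at the floor in the other 5 libraries, below the minimum.

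Wfdc6a had 25.2 normalised reads in the uterus of WT, 27.5 in that of the Hoxd-null and 28.6 in the Hoxd-null compound, 169 in the Hoxa-null and 424 in the Hoxa-null compound uterus, and 266 in the oviduct. Wfdc6b had 20.8, 25.1, 21.6, 52.0, 145 and 55.3 in the same order. For both genes the Hoxa-null pair and the oviduct were high and the 3 other uteri alike and low. Wfdc6a was 6.68-fold [4.33 to 10.9] and 16.8-fold [11.0 to 26.8] above WT in the Hoxa-null and Hoxa-null compound uterus, and Wfdc6b 2.49-fold [1.46 to 4.45] and 6.94-fold [4.31 to 11.9]. Both were higher in the compound than in the single Hoxa-null uterus, by 2.51-fold [2.10 to 3.00] and 2.79-fold [2.03 to 3.88]. Spink4 was low, with 2.19 normalised reads in the WT, 2.40 in the Hoxd-null, 11.0 in the Hoxa-null and 7.83 in the Hoxa-null compound uterus, the floor in the Hoxd-null compound uterus and 21.4 in the oviduct. Its interval against WT was 1.15 to 47.6 in the Hoxa-null and 0.73 to 35.3 in the Hoxa-null compound uterus, which includes 1.

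Wfdc8, the divergent neighbour of Wfdc6b, did not follow it in the uterus. Wfdc8 had 54.5 normalised reads in the WT, 47.9 in the Hoxd-null, 250.2 in the Hoxd-null compound, 107 in the Hoxa-null compound and 3.95 in the Hoxa-null uterus, and 34.8 in the oviduct. The Hoxa-null uterus was the lowest, with a ratio to WT of 0.02 to 0.19 by its interval, and the Hoxd-null compound uterus the highest, 4.60-fold above WT [3.37 to 6.31]. Wfdc13 had 40.6, 10.4, 39.5, 95.1 and 49.4 normalised reads in the WT, Hoxa-null, Hoxd-null, Hoxa-null compound and Hoxd-null compound uterus and 44.2 in the oviduct. Like Wfdc8 it was lowest in the Hoxa-null uterus and above WT in the Hoxa-null compound uterus. Of the chromosome 2 cluster, 6 members were at least 2-fold lower than WT in the Hoxa-null uterus, namely Wfdc15b, Slpi, Wfdc8, Wfdc10, Wfdc13 and Wfdc3, and 1 of them, Wfdc3, was also lower in the Hoxa-null compound uterus. Between the 2 Hoxa-null uteri, 8 members were at least 2-fold higher in the compound mutant and 2 lower, with backgrounds of 6.41% and 4.88%. Of the genes of seminal vesicle secretion in the cluster, Semg1, Svs4 and Svs5 were lower in the Hoxa-null uterus, at -2.36, -3.72 and -2.99 log2 units from WT, and higher in its compound, and Svs6 stayed within 2-fold at -0.20 and -0.31.

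Wfdc3 had 118 normalised reads in the WT and 82.0 in the Hoxd-null uterus, 15.1 in the Hoxa-null, 23.2 in the Hoxa-null compound and 6.402 in the Hoxd-null compound uterus, and 81.1 in the oviduct. The 3 uteri with 2 or 1 mutant copies of Hoxa9,10,11 were lower than the 2 with none, at -2.97, -2.35 and -4.20 log2 units from WT. Slpi had 115 normalised reads in the WT, 47.3 in the Hoxa-null, 127 in the Hoxa-null compound, 221 in the Hoxd-null and 338 in the Hoxd-null compound uterus, and 120.2 in the oviduct. It was 2.94-fold above WT [2.36 to 3.69] in the Hoxd-null compound uterus, and the Hoxd-null library did not reach 2-fold. Neutrophil markers moved in the same direction in the Hoxd-null pair, with 5 of 5 measured at least 2-fold above WT in both. The 5 of 7 listed neutrophil markers with a level summed to 37.2 normalised reads in WT, 90.4 in the Hoxa-null, 338 in the Hoxa-null compound, 1759 in the Hoxd-null and 1170 in the Hoxd-null compound uterus. Their part in the Slpi values was not tested.

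Other Wfdc genes varied without following a genotype. Wfdc16 had 19.7, 10.8, 12.7, 17.8 and 72.0 normalised reads in the WT, Hoxa-null, Hoxd-null, Hoxa-null compound and Hoxd-null compound uterus and was at the floor in the oviduct. Wfdc15b ranged from 142 in the Hoxd-null compound to 540.2 in the WT uterus, and Wfdc10 from 53.9 in the Hoxa-null to 159 in the Hoxd-null compound uterus. Wfdc1 was lower than WT by 1.97 log2 units in the Hoxd-null compound uterus and Wfdc2 had a range of 0.41 over the 5 uteri. Spink8 had log2 values of 0.06 in the WT, -2.13 in the Hoxa-null, -0.06 in the Hoxd-null, 0.40 in the Hoxa-null compound and 0.24 in the Hoxd-null compound uterus, and -1.64 in the oviduct. Spink10 had 5.35 normalised reads in the WT, 2.84 in the Hoxa-null, 14.3 in the Hoxd-null, 36.5 in the Hoxa-null compound and 28.5 in the Hoxd-null compound uterus, and 5.42 in the oviduct. It was thus low, and at least 2-fold above WT in each uterus with a mutant copy of Hoxd9,10,11. This rests on few reads, 4.88 in the WT and 11.98 in the Hoxd-null uterus.

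Of the cystatins in the uterus, Cst3 and Cstb had ranges of 0.61 and 0.66 log2 units over the 5 libraries. Cst7, the leukocyte cystatin F, had 30.7, 19.9, 52.3, 13.9 and 28.3 normalised reads in the WT, Hoxa-null, Hoxd-null, Hoxa-null compound and Hoxd-null compound uterus, with the 2 Hoxa-null libraries lowest. Natural killer cell markers were at least 2-fold lower than WT in the Hoxa-null uterus for 6 of 7 and in the Hoxa-null compound uterus for 7 of 7, and those with a level summed to 459, 120.4, 458.7, 118 and 397.6 normalised reads in the same order. Their part in the Cst7 values was not tested. Cst8 was at the floor in 4 uteri and had 12.8 normalised reads in the Hoxd-null compound uterus and 137 in the oviduct, and Cst12 had 51.7 in the oviduct and was at the floor in all 5 uteri.

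Between the WT segments of the female tract, 4 members were at least 4-fold higher in the oviduct than in the WT uterus, Cst8, Cst12, Spink4 and Wfdc6a, against 8.82% of all measured genes, and 2 were lower, Spink12 and Wfdc16, against 3.54%. Cst8, Cst12 and Spink4 reached the minimum level only in the oviduct. They were thus counted only through the library in which they were higher. Against a limit of 3 counts in the uterus, Cst8 was at least 41.6-fold and Cst12 at least 15.7-fold higher in the oviduct. Wfdc6a was 10.6-fold higher [6.92 to 16.9]. The median difference of the measured members was -0.46 log2 units, against 0.01 for all measured genes. The oviduct and the uterus were sequenced in different runs, so segment and run cannot be told apart. Compared with its single mutant, the Hoxd-null compound uterus had 5 members higher and 4 lower, with backgrounds of 5.24% and 4.24%.

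Proteases that members of these families can block were read beside them. Of 11 cysteine proteases that cystatins inhibit, all measured in both sexes, 0 were 2-fold from WT in any mutant vas, with medians from -0.21 to -0.01. In the uterus Ctsw, a cathepsin of cytotoxic lymphocytes, separated the Hoxa-null pair, at -1.53 and -1.62 log2 units from WT, and Ctss, a cathepsin of antigen-presenting cells, separated the Hoxd-null pair, at 1.38 and 1.39. Macrophage markers were at least 2-fold above WT for 6 of 6 in both Hoxd-null uteri. Of 31 serine proteases of epithelium and leukocytes, 23 were measured in the uterus and 20 in the vas deferens. In the Hoxa-null uterus 7 were higher and 2 lower than WT and in the Hoxa-null compound uterus 4 and 5, with the kallikrein gene Klk11 at 2.49 and 2.35 and Tmprss11e, an epithelial transmembrane protease gene, at 3.66 and 1.54. In the Hoxd-null compound uterus 11 were higher and 1 lower, and in the Hoxd-null uterus 4 and 3. The vas deferens had 3 higher and 2 lower for Hoxa-null, 1 and 6 for its compound, 1 and 4 for Hoxd-null and 2 and 3 for its compound, and none but Acr separated a null pair.

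Of 29 other protease inhibitors outside the serpin family, 27 were listed, and 15 were measured in the uterus and 16 in the vas deferens. In the Hoxa-null vas 5 were higher and 0 lower than WT, and in the Hoxa-null compound vas 5 and 1. Spinlw1, the older symbol of the sperm-surface inhibitor Eppin, had 46.0 normalised reads in the WT, 47.3 in the Hoxd-null, 352 in the Hoxd-null compound, 531 in the Hoxa-null and 1025 in the Hoxa-null compound vas, and 2460 in the epididymis. Spint3, a Kunitz inhibitor gene in the same cluster, was at 2.66, 2.42 and 1.67 log2 units from WT in the Hoxa-null, Hoxa-null compound and Hoxd-null compound vas. Expi, a gene for an extracellular protein with a whey acidic protein domain, was the only one of this list to separate the Hoxa-null pair in the vas, at 1.38 and 1.47. In the uterus 2, 2, 4 and 2 were higher and 5, 3, 4 and 3 lower in the Hoxa-null, Hoxd-null, Hoxa-null compound and Hoxd-null compound library, and none separated a null pair.

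Of the 37 members, 19 were measured in both sexes. Levels were not compared between the sexes, because the authors centred each sex on its own. Within each sex Wfdc6a and Wfdc6b were at least 2-fold above WT in both Hoxa-null libraries. A further 6 members, Wfdc3, Wfdc8, Wfdc10, Wfdc13, Wfdc15b and Spink8, were at least 2-fold above WT in the Hoxa-null vas. The same members were at least 2-fold below WT in the single Hoxa-null uterus. In the Hoxa-null compound uterus, Wfdc3 alone of them was that far below WT, at -2.35 log2 units, and Wfdc13 was above it, at 1.225. The share of all measured genes that were higher in that vas and lower in that uterus was not counted. Slpi was lower than WT in the Hoxa-null library of both tissues, and in the Hoxd-null compound library it was lower in the vas deferens and higher in the uterus. These differences between tissues were not tested.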

How the data were processed

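RNA sequencing of 12 mouse libraries was used, 1 per tissue and genotype. Per the labels, RNA was purified on RNeasy columns and libraries followed the TruSeq protocol. TopHat and the mm9 build appear in the submitters' processing notes. For counting, scaling, annotation and strand use, the method is "not given in the sources used here". The deposited values are log2 values that the authors centred per gene on the median of the 6 libraries of a sex.

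Before centring, the values had been read numbers times 1 factor per library, raised to at least 1. Low values lay on steps of 1 read or of fractions down to 1 in 50, and from these steps the factors and the levels were read (Python 3.11.15, numpy 2.4.6, numba 0.67.0). For the WT vas deferens, the deepest library, 142, 101, 58 and 27 low genes lay at 2, 3, 4 and 5 reads and 7 and 1 midway between 2 and 3 and between 3 and 4, so a read was not taken as larger. On simulated data 79.1% of 1992 female and 79.0% of 1987 male genes were placed, 93.1% and 93.4% of them at the right level. On the right side of the minimum fell 99.2% and 99.3%. Of the deposited genes that were not constant, fewer were placed: 9145 female and 10163 male genes, against 9878 and 9205 that were not. The simulation used the same model of steps, so its shares need not hold for the deposited values. Shifts between libraries of at most 0.00684 (female) and 0.00502 (male) log2 units were removed. Genes counted as measured when not constant and with a highest level of at least 20 normalised reads, or a level that could not be read: 16524 female and 16597 male genes.

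Calls were 2-fold against WT or the single mutant, 2-fold between both null libraries and all 3 others, and 4-fold between WT segments; with 1 library per group there is no test. Intervals are exact (Clopper-Pearson, scipy 1.17.1). Alternatives changed the minimum, the floor, the shift, the reference and the libraries used; values within a lane were added after the data were seen. The members, gene lists and markers were chosen with earlier results of these data known. Every member is accounted for. All libraries are given for members at least 4-fold from WT in a mutant, separating a null pair or 4-fold apart between segments: 12 female members and the 20 male members of widest range. Lists name up to 4 measured genes with the largest difference. The plots were drawn with matplotlib 3.10.9.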

Additional observations from a re-analysis of the deposited data

Results flagged for a closer look

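Spink4 differed in opposite directions between the tissues in the separation of the Hoxa-null libraries. In the uterus both Hoxa-null libraries lay above the 3 others by at least 1.71 log2 units, and in the vas deferens they lay below them, with a gap of -3.16. Every Hoxa-null library of one tissue thus moved one way and every one of the other tissue the opposite way. The difference between the tissues was not tested. In the uterus the levels were low, at most 11.0 normalised reads, and with levels under 5 raised to 5 the gap was 0.64, under 2-fold.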

How the results depend on the processing

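No paired analysis was possible because each group is 1 library. The counts below are of members, and the matching shares of all measured genes under each alternative are not given. With deposited values used as they are, no count of members moved by over 1.5 times. The Hoxd-null uterus, with 2 members 2-fold from WT, had 5 with no minimum, 1 at a minimum of 50 normalised reads and 8 against the mean of the 3 uteri that are not Hoxd-null; the Hoxd-null vas, with 4, had 17 against the matching mean. At a minimum of 50 the Hoxd-null pair was separated by 0 members in the vas. Leaving out 1 library at a time, the Hoxa-null pair was separated by 5 to 9 members in the uterus (9 without the Hoxa-null compound) and 13 to 17 in the vas, and the Hoxd-null pair by 0 to 7 in the uterus (5 without WT, 7 without the Hoxd-null, 1 without the Hoxa-null compound) and 1 to 15 in the vas (15 without WT, 3 without the Hoxd-null compound). With levels under 5 raised to 5, Spink4 in the Hoxd-null compound uterus was 0.00 log2 units from WT and 0.006 from the Hoxd-null uterus. Against the mean of 3 libraries, signs turned for Cst8 in the Hoxa-null vas (-0.62), Spink6 in the Hoxd-null vas (-1.60) and, in the Hoxd-null compound vas, Spink6 (-0.089), Wfdc12 (-0.68), Wfdc16 (-0.48), Wfdc6b (-0.25), Spink10 (-0.51), Wfdc8 (-0.86) and Slpi (0.40). For the Hoxd-null libraries that mean includes both Hoxa-null libraries. With WT left out, the Hoxd-null pair was set against both Hoxa-null libraries alone, so the same members separate either pair. Beyond that, the cause was not tested. Members of low level, such as Spink4 in the uterus and Cst8 in the vas, rest on few reads.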
